A study of Mus musculus with 4 samples.

Results

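The untreated FAK knockout was compared with untreated wild type in mouse embryonic fibroblasts, the mixed connective-tissue cells cultured from minced embryos. The comparison uses 2 of the series' 4 arrays, and the other 2 hold the same genotypes after endothelin-1 (ET-1). For each gene the log2 value in wild type (FAK +/+, no ET-1) was subtracted from that in the knockout (FAK -/-, no ET-1), so a difference of 1 is 2-fold and a positive value is higher in the knockout. Cells of both genotypes were used at passage 5, had grown in 10% serum, and stood at 50% confluence when serum was withdrawn for 24 h, followed by a further 24 h without ET-1. Each group is 1 culture on 1 array. The labels name neither a line, a clone, a strain nor any further allele, and they do not say how FAK was lost.

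FAK, focal adhesion kinase, is a cytoplasmic tyrosine kinase that is recruited to integrins where a cell grips its matrix. It autophosphorylates, binds Src and scaffold proteins such as p130Cas and paxillin, and passes the signal on to MAP kinases and the actin cytoskeleton. Fibroblasts without FAK are known for crowded peripheral adhesions and slow migration, and for a raised level of the related kinase Pyk2. Embryos without FAK die early with defects of the mesoderm, and fibroblasts without FAK have often been derived from embryos that also lack p53. The gene that encodes FAK is paired with no probe set in the annotation used and was not analysed here, so the genotype labels could not be checked by it, and Trp53 was not analysed here either.

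Of 18194 genes on the array, 12290 had a level above the median of all deposited values (log2 8.90) on at least 1 of the 4 arrays. In the knockout 587 of these (4.78%) read higher than in wild type by 2-fold or more and 564 (4.59%) read lower by as much, and the median difference over all genes was 0.02. With 1 array a side there is no replicate check and no test for any difference below, and precision is limited by having so few arrays. In each gene class, counts of members past 2-fold are set beside these percentages and this median as a description. A member could pass the level filter through 1 array alone, so the counts over members that passed do not cover all members of a class.

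The differences reached 4.38 at the high end and -5.27 at the low end. The lower side held the larger ones, with 41 genes at 8-fold or more higher against 70 lower, and 1 gene at 16-fold or more higher against 15 lower. Of the 587 higher genes 162 read at or below the level filter in wild type, and of the 564 lower genes 224 did so in the knockout, where folds are uncertain. Among the 11196 genes above the filter on both arrays, 425 were higher and 340 were lower. With the genes split by level into 4 bins of equal size, 3.38% of the brightest bin were 2-fold or more higher and 2.02% lower, and of the dimmest bin 4.72% and 6.38%.

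**Figure D1:**
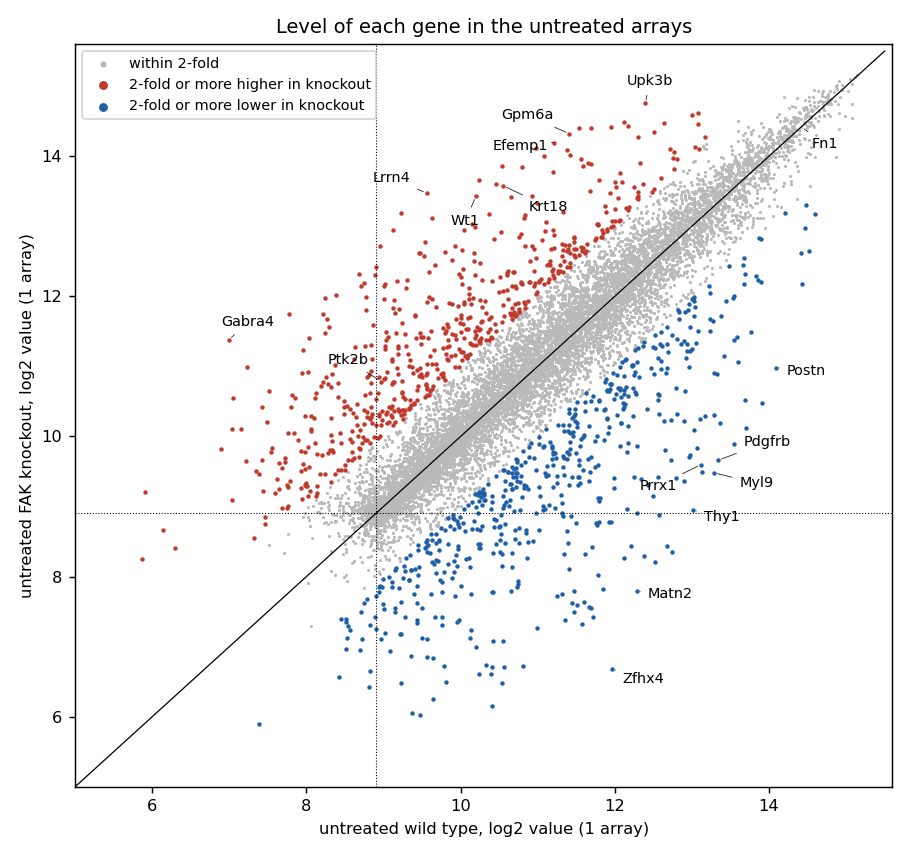
Log2 level of each of the 12290 genes in untreated wild type (x axis) and in the untreated knockout (y axis), 1 array each. The solid line marks equal levels, the dotted lines mark the level filter of 8.90, red points are the 587 genes 2-fold or more higher, and blue points are the 564 genes 2-fold or more lower. Fn1 lies on the line at 14.42 in both arrays, while Wt1 lies above it and Thy1 below.

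Technical measures of the pair were alike in most respects. The array medians were 8.92 in wild type and 8.89 in the knockout, and the 3' probe set of Gapdh exceeded its 5' probe set by 0.87 and 0.85. For Actb the gap was 0.67 in wild type but 1.30 in the knockout, and its part in any difference was not tested. Other probe sets of the genes past 2-fold had the same sign in 95.4% of 411 cases for higher genes and in 96.9% of 386 for lower genes, against 75.4% of 7835 for genes within 2-fold. Of the other probe sets of higher and of lower genes, 50.9% and 59.1% also passed 2-fold in the same direction, while 0 and 3 passed it in the opposite direction. The ET-1 pair shares no array with the untreated pair, but it holds the same genotypes under treatment and is not a replicate. Its wild-type array had a Gapdh gap of 3.79. In the ET-1 pair 689 genes (5.61%) were higher and 803 (6.53%) lower, and 427 of the 587 higher genes and 492 of the 564 lower genes passed 2-fold in the same direction.

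Cell identity was checked first. Markers that define fibroblasts gave both equal and unequal levels. Vim, the mesenchymal intermediate filament vimentin, read 14.91 in wild type and 14.38 in the knockout, and Twist1, a mesenchymal transcription factor, 11.24 and 11.08. Both arrays thus read high for these genes. Thy1, a glycoprotein commonly used to sort fibroblasts, read 13.01 in wild type and 8.95 in the knockout, which is 16.7-fold lower and close to the level filter. Pdgfrb, the receptor for PDGF-B on mesenchymal and mural cells, read 13.34 and 9.66, a 12.8-fold difference. In these data fewer cells of a type and less RNA per cell cannot be told apart.

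Across 54 listed fibroblast surface and transcription factor genes, 50 were on the array and 40 passed the filter. Of those 40, 14 were lower and 2 were higher, with a median of -0.52. Of the 10 surface genes among them 6 were lower, and of the 30 transcription factors 8 were. The paired-box relative Prrx1, which marks limb and body-wall mesenchyme, read 13.11 in wild type and 9.60 in the knockout. Twist2, a basic helix-loop-helix repressor of dermal fibroblasts, read 12.97 and 9.73. Cd34, a sialomucin of progenitor and adventitial fibroblasts, was 4.84-fold lower, and the collagen receptor Ddr2 was 3.48-fold lower. Zfhx4, a large zinc-finger homeobox factor, had the lowest difference of all genes, reading 11.96 and 6.68. Tcf21, a factor of visceral and epicardial mesenchyme, went the other way, at 8.77 in wild type and 11.99 in the knockout, 9.31-fold higher. When all probe sets of a gene are averaged the differences are smaller for Zfhx4 (-3.74), Pdgfrb (-2.92), Prrx1 (-2.04), Pdgfra (-0.75) and Tcf21 (1.66).

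Mesothelial markers stood apart on the high side. Mesothelium is the simple epithelium that lines body cavities and covers organs, and it expresses keratins together with mesenchymal genes. All 15 listed markers were on the array and 13 passed the filter, with 9 higher, 1 lower and a median of 2.36. Without the filter the median over all 15 was 1.92. Lrrn4, a leucine-rich repeat membrane protein of mesothelium, read 9.56 in wild type and 13.47 in the knockout, 15.1-fold higher. Wt1, the zinc-finger factor of mesothelium, kidney and gonad, read 10.20 and 13.43, 9.37-fold higher. The arrays differed by less for mesothelin itself (Msln), at 12.05 and 13.08, which is 2.04-fold.

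The uroplakins of the same list, membrane plaque proteins also made by mesothelium, were bright in both arrays and brighter in the knockout. Upk3b read 12.39 in wild type and 14.76 in the knockout, and Upk1b read 11.38 and 14.08. The membrane glycoprotein Gpm6a was 7.51-fold higher, the zinc-finger factor Bnc1 5.96-fold, the mucin Muc16 (the CA125 antigen) 5.53-fold and the Wnt amplifier Rspo1 3.78-fold. Muc16 and Rspo1 read below the level filter in wild type, at 8.27 and 8.52. Other markers of the list gave no difference of this size, with Calb2 (calretinin) at 9.56 and 9.43, Aldh1a2 at 7.45 and 7.33, and Dpp4 at 8.62 and 8.53. Krt19 was lower, at 11.43 in wild type and 8.86 in the knockout.

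Averaged over the mesothelial list, wild type read 10.19 and the knockout 11.58, and over the fibroblast list it was 10.52 and 9.65. Wild type also read above the filter for 11 of the 15 mesothelial markers, against 12 in the knockout. After ET-1, 8 of the 13 were higher and 1 lower. Which cells these transcripts came from was not measured, and the part of such cells in the other differences below was not tested.

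**Figure D2:**
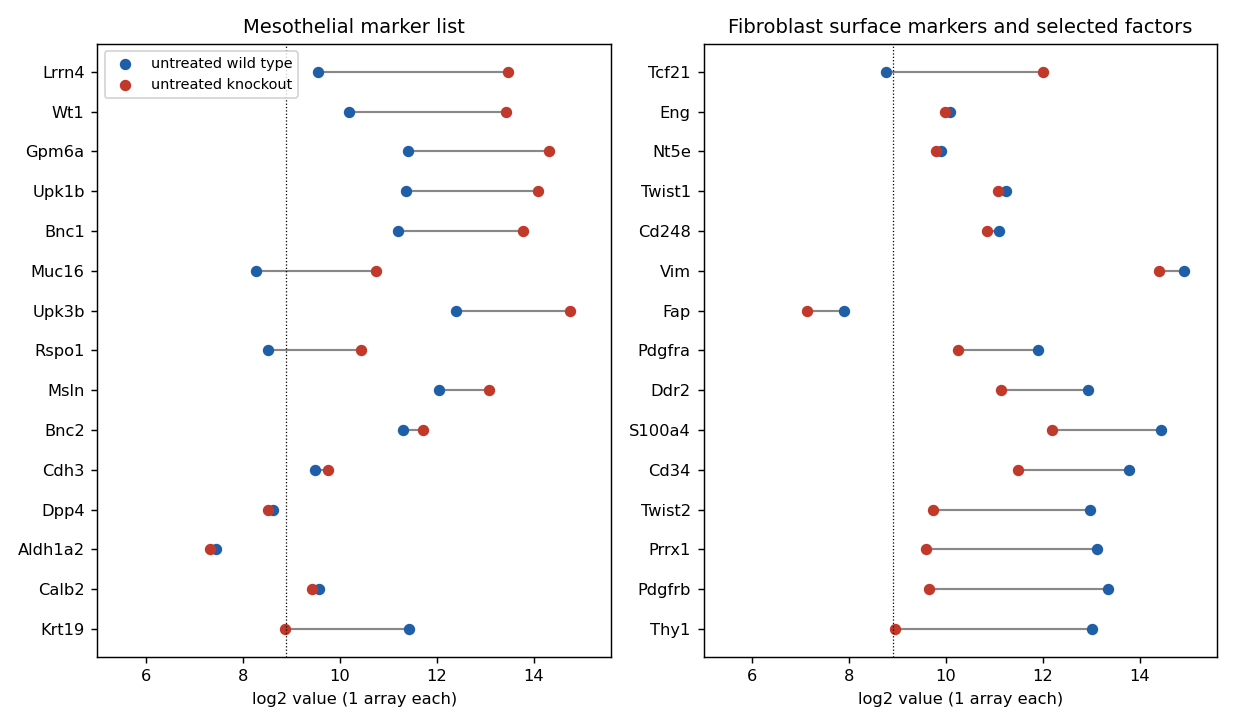
Log2 level on each untreated array (blue, wild type; red, knockout; 1 array each) of the 15 mesothelial markers (left) and of fibroblast surface markers with selected factors (right), with the level filter of 8.90 as a dotted line. Lrrn4, Wt1, Gpm6a and Upk1b are 6.52-fold to 15.1-fold higher in the knockout, Krt19 is lower, and Thy1, Pdgfrb, Prrx1 and Twist2 are 9.43-fold to 16.7-fold lower.

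Keratins, the intermediate filaments of epithelia, and the junction genes that anchor them were the other epithelial classes. Of 41 listed epithelial genes 40 were on the array and 25 passed the filter, with 9 higher, 1 lower and a median of 0.28. Krt18, which pairs with Krt8 in simple epithelia, read 10.55 in wild type and 13.58 in the knockout. Krt8 read 10.04 and 11.40, and Krt7 read 9.14 and 11.95. Krt14, a basal-layer keratin, was 4.57-fold higher. The desmosomal plaque protein desmoplakin (Dsp) was 3.64-fold higher, the envelope protein Evpl 2.60-fold, the tight junction protein cingulin (Cgn) 2.60-fold, and the splicing factors Esrp1 and Esrp2, which favour epithelial exons, 2.35-fold and 2.08-fold. Averaging all probe sets takes Cgn (0.81) and Esrp2 (0.78) under 2-fold. Cdh1, the epithelial cadherin that defines most epithelia, read 5.95 and 5.81, below the filter in both arrays, and Epcam read 11.99 and 11.73. Averaged over the 40 epithelial genes, wild type read 9.35 and the knockout 9.75.

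Markers of other lineages were checked as well. Of 10 endothelial markers 3 passed the filter and none was past 2-fold. Pecam1 read 7.76 in wild type and 7.72 in the knockout and Cdh5 read 7.44 and 7.47. Among 11 leukocyte markers on the array 1 was past 2-fold, Csf1r, the receptor for CSF-1, at 10.24 and 11.36, while the pan-leukocyte gene Ptprc read 6.70 and 6.58. Averaging all probe sets of Csf1r gave 0.75. None of the 13 muscle markers was past 2-fold, and Myog read 7.98 and 7.96. In the neural and glial list the myelin gene Mbp was 3.88-fold higher and the microtubule protein Map2 3.50-fold lower (-0.83 over all its probe sets), while Gfap and Sox10 differed by 0.01 and -0.12. The X-inactivation transcript Xist read 9.93 and 9.97, and the Y-linked genes Uty, Kdm5d and Eif2s3y were under the level filter in both arrays.

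Focal adhesion genes come next, since FAK acts there. Of 45 listed, 40 were on the array and 39 passed the filter, with 2 higher, 5 lower and a median of -0.06. By the brightest probe sets most of the class therefore lay within 2-fold, as paxillin (Pxn, 12.77 in wild type and 13.15 in the knockout), talin-1 (Tln1, 12.99 and 13.62), Ilk (13.27 and 12.93) and Src (10.96 and 10.73) did. Dimmer probe sets of Tln1 (1.10) and of another member, Asap1 (-1.66), were past it. Ptk2b, which encodes Pyk2, read 8.97 in wild type and 10.78 in the knockout, 3.50-fold higher, though its wild-type level sat at the filter and the mean over its probe sets was 0.96. Ezr, ezrin, a linker of membrane and cortical actin in microvilli, read 12.12 and 14.48, 5.14-fold higher (1.25 over both its probe sets). The p130Cas gene Bcar1, a FAK substrate, differed by -0.66.

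Of the 5 lower members 3 were scaffolds, 1 was a kinase and 1 linked adhesions to actin. Tgfb1i1, which encodes the paxillin relative Hic-5, read 12.90 in wild type and 10.22 in the knockout. Parvb, beta-parvin of the ILK complex, read 10.70 and 8.54, and talin-2 (Tln2) read 11.38 and 9.68. The p21-activated kinase Pak3 was 2.80-fold lower and the zyxin relative Lpp 2.11-fold lower. Over all probe sets of each gene, Parvb (-0.98), Tln2 (-0.84) and Pak3 (-0.99) came under 2-fold and Lpp did not (-1.10).

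Integrins, the matrix receptors upstream of FAK, showed 1 member past 2-fold out of the 14 that passed the filter, of 18 on the array and 19 listed, with a median of -0.14. Itgb8, a beta chain that binds latent TGF-beta, read 7.84 in wild type and 10.05 in the knockout. The common chains were near equal, with Itgb1 at 13.13 and 12.79 and Itgav at 13.97 and 13.64. Itga5, the fibronectin receptor chain, was at -0.84, whereas Itgb3 and the laminin receptor chain Itga6 were at 0.87 and 0.81.

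Contractile and actin-bundling genes had no member past 2-fold on the high side. All 31 were on the array and 30 passed, with 6 lower and a median of -0.32. Myl9, the regulatory light chain of smooth muscle myosin, read 13.29 in wild type and 9.48 in the knockout, a difference of -3.80. Actg2, the enteric smooth muscle actin, read 12.96 and 9.71. Calponins, which bind actin filaments and hold myosin ATPase in check, were 4.79-fold lower for Cnn1 and 3.67-fold lower for Cnn2. Mylk, the kinase that phosphorylates myosin light chains, was 3.21-fold lower (-0.88 over all its probe sets), and Lmod1, an actin nucleator, 2.21-fold lower.

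Other light chains of the class lay within 2-fold. Myl6 read 10.58 in wild type and 9.95 in the knockout, a difference of -0.63. Myl12a read 14.76 and 14.74 and Myl12b 13.26 and 13.47. Alpha smooth muscle actin (Acta2) read 14.98 and 14.58, close to the highest value of the table, 15.24. Transgelin (Tagln) was at -0.87, filamin A (Flna) at -0.77 and tropomyosin 2 (Tpm2) at -0.59.

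Many contractile genes carry a CArG box, the element bound by serum response factor, whose coactivator responds to free actin, and several CCN and YAP-responsive genes carry a TEAD motif, bound by the partners of YAP. Promoter windows from RefSeq (GRCm38.p6; 250 bases before to 50 after each start) were searched on both strands. A CArG box was found for 6 of the 28 contractile genes with a window (21.4%), against 488 of 27025 genes (1.81%). These 6 were Acta1, Actc1, Cnn2, Myl6, Myl9 and Vcl, with differences from -3.80 to -0.09. Of the 6 contractile genes lower by 2-fold, Actg2 had no window, Cnn2 and Myl9 held the match, and Cnn1, Mylk and Lmod1 did not. The sequences show the box beside Myl9 at -3.80, Cnn2 at -1.88 and vinculin (Vcl) at -0.29. Each runs 5' to 3' on the gene's strand over the 250 bases before the start, with the match in capitals, and lies at chr2:156775214-156775463 (plus strand), chr10:79988350-79988599 (plus) and chr14:20929148-20929397 (plus). The matches begin 161, 56 and 227 bases before the start.
Myl9: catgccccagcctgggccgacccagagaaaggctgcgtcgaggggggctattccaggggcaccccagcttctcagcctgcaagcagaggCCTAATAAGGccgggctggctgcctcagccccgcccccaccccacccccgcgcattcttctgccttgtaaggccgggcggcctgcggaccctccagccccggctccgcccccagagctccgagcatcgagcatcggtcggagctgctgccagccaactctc
Cnn2: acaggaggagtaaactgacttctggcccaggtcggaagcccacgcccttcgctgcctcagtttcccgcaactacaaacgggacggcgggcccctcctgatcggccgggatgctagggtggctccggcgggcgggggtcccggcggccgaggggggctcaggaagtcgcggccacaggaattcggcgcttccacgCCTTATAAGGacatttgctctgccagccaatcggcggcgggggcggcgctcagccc
Vcl: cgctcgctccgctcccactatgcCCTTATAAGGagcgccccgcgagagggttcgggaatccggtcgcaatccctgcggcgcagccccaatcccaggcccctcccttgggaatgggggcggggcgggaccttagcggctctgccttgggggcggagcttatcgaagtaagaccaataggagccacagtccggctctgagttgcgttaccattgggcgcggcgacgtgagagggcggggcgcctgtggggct

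CCN proteins are secreted modulators of adhesion and growth factor signalling. In the CCN and YAP-responsive class all 19 genes passed the filter, with 0 higher, 4 lower and a median of -0.23. Ccn3 read 12.12 in wild type and 8.27 in the knockout, 14.4-fold lower. Ankrd1, a titin-associated repressor and standard YAP readout, read 13.24 and 11.67. Ccn4 was 2.06-fold and the kinase Nuak2 2.15-fold lower. Just under 2-fold lay Ccn2, at 14.36 and 13.38, Ccn1, at 13.27 and 12.32, and the tissue factor gene F3, at 12.67 and 11.70. A Ccn1 probe set of similar level, at 13.33 and 12.21, was past 2-fold (-1.12), and its dimmer ones were at -0.77 and -0.71. The 5 CCN genes had a median of -0.98 and the 14 other responsive genes one of -0.10.

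The TEAD motif, GGAATG or CATTCC, was found for 9 of the 12 genes of this class with a window (75.0%), for 13 of 28 contractile genes (46.4%) and for 4481 of all 27025 genes (16.6%). Genes with a match lay on both sides of 0, as Ajuba (0.23) and Ptpn14 (0.07) held one, and F3 (-0.96) did not. A match in a window is a description and not a binding site. The sequences of the bright genes Ankrd1 and Ccn1 show the motif in capitals over the 250 bases before the start, at chr19:36119845-36120094 (minus strand) and chr3:145649986-145650235 (minus), printed 5' to 3' on the gene's strand. Ankrd1 held 2 matches, the first 210 bases before the start, and Ccn1 held 1, at 103 bases.
Ankrd1: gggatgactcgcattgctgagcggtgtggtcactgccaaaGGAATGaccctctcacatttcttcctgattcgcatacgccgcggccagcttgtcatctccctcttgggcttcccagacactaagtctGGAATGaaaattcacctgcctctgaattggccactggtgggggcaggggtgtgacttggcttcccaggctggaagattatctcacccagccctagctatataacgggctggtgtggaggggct
Ccn1: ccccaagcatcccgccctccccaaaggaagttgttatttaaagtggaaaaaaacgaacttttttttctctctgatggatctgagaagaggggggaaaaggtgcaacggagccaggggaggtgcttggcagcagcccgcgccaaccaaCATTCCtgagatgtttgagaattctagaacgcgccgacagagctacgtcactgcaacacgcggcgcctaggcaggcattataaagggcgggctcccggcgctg

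Matrix genes differed by kind. Fibronectin (Fn1), the main ligand of Itga5 and Itgb1, read 14.42 in both arrays. Fibrillar collagens, the load-bearing fibres, had 11 members on the array and 9 that passed, with 1 higher, 2 lower and a median of -0.34. Col1a1 read 13.84 in wild type and 12.29 in the knockout, and its partner chain Col1a2 read 14.87 and 13.98, with its other 2 probe sets at -1.52 and -2.94. Col11a1 was 3.59-fold lower. Col5a2 read 12.18 and 14.43, 4.77-fold higher, although Col5a1, which shares its trimer, was at -0.51. Col3a1 differed by 0.18.

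Of the other collagens, 15 of 21 on the array passed, with 0 higher, 4 lower and a median of -0.18. Each of the lower ones belongs to a different structural kind. Col6a3, a microfibril chain, read 13.03 in wild type and 10.09 in the knockout. Col12a1, which coats fibrils, read 11.78 and 9.12, but its 4 probe sets averaged -0.87. Col8a1, a network chain, was 5.39-fold lower (-1.60 over its probe sets) and Col7a1, the anchoring fibril chain, 3.02-fold lower.

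Basement membrane genes had a median slightly above 0. Of 24 on the array 17 passed, with 4 higher, 1 lower and a median of 0.21. Over all 24 the median was 0.05, and after ET-1 that of the 17 was -0.01. Agrin (Agrn), a heparan sulfate proteoglycan that binds laminin, read 10.78 in wild type and 12.19 in the knockout. Col4a6 read 9.68 and 11.04, Lama5 read 10.76 and 11.77, and nidogen-2 (Nid2) was 2.19-fold higher while nidogen-1 (Nid1) was 2.18-fold lower. Averaged over their probe sets, Agrn (0.71), Lama5 (0.70) and Nid1 (-0.91) fell short of 2-fold.

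Elastic fibre genes split by role. Both core genes that passed were higher, Eln at 10.09 in wild type and 11.12 in the knockout and Fbn2, a fibrillin, at 8.78 and 10.34. Efemp1, a fibulin, read 11.21 and 14.19, 7.93-fold higher. The microfibril-associated genes Ltbp1, which tethers latent TGF-beta to matrix, Emilin1 and Emilin2 were at -3.91, -2.10 and -2.26. In all 14 of 15 genes on the array passed, with 3 higher and 3 lower and a median of -0.03, and means over all probe sets were 0.60 for Eln, -1.62 for Ltbp1 and -1.32 for Emilin1.

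Enzymes that process and crosslink collagen had a median of -0.70 over 18 genes that passed, of 20 on the array, with 1 higher and 5 lower. Pcolce2, which speeds removal of the collagen C-propeptide, read 11.72 in wild type and 7.42 in the knockout, and its relative Pcolce read 14.48 and 13.30. Of the 4 lysyl oxidases, which start crosslinks, 3 were lower, with Lox at 14.20 and 13.19, Loxl1 at 13.00 and 11.96 and Loxl4 at 10.67 and 9.25. Averaging their probe sets brings Lox (-0.75), Loxl1 (-0.98) and Loxl4 (-0.99) under 2-fold. None of the 8 hydroxylases was past 2-fold, though their median was -0.70. Tgm2, a transglutaminase that crosslinks proteins, was 3.57-fold higher.

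Matricellular and adhesive glycoproteins, which tune adhesion rather than bear load, had the lowest median of the classes that kept at least 5 genes, -2.39, with 0 higher and 8 lower of 10 that passed. Over all 18 on the array the median was -0.43, so the value rests on the bright members. Matn2, matrilin-2, read 12.28 in wild type and 7.79 in the knockout, Thbs1, thrombospondin-1, 12.79 and 9.41, and periostin (Postn) 14.09 and 10.98. Thbs2 was 6.41-fold lower and tenascin-C (Tnc) 4.27-fold lower, whereas Sparc read 13.76 and 13.97. Matn2 and Thbs1 averaged -3.61 and -2.71 over their probe sets.

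Small leucine-rich proteoglycans, which space collagen fibrils, differed in both directions. Asporin (Aspn) read 11.57 in wild type and 7.33 in the knockout, biglycan (Bgn) 14.60 and 13.17, and Ogn was 3.51-fold lower. Decorin (Dcn) read 12.64 and 14.47 and fibromodulin (Fmod) 9.19 and 11.17. Of 11 on the array 7 passed, with 2 higher, 3 lower and a median of -0.10. Among cell-surface proteoglycans 12 of 14 passed, with 1 higher and 5 lower. Cd44, the hyaluronan receptor, read 13.69 and 12.31, and the glypicans Gpc4 and Gpc1 were 3.10-fold and 3.01-fold lower while Gpc3 was 2.38-fold higher. Versican (Vcan) was 4.60-fold lower by its brightest probe set, but its 8 probe sets averaged -0.64.

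Matrix proteases and their inhibitors gave 3 higher and 7 lower of 26 that passed, of 31 on the array, with a median of -0.28. Serpinb2, the type 2 plasminogen activator inhibitor, read 9.64 in wild type and 6.25 in the knockout. Stromelysin-1 (Mmp3) read 9.43 and 7.38, and the gelatinase Mmp2 read 12.26 and 10.91. Timp1, a metalloproteinase inhibitor, was 2.20-fold lower. Adamts5 was 2.94-fold lower and Adamts9, another secreted proteoglycanase, 3.34-fold higher. Tissue plasminogen activator (Plat) was 2.07-fold higher by its brightest probe set and at 0.61 over both.

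**Figure D3:**
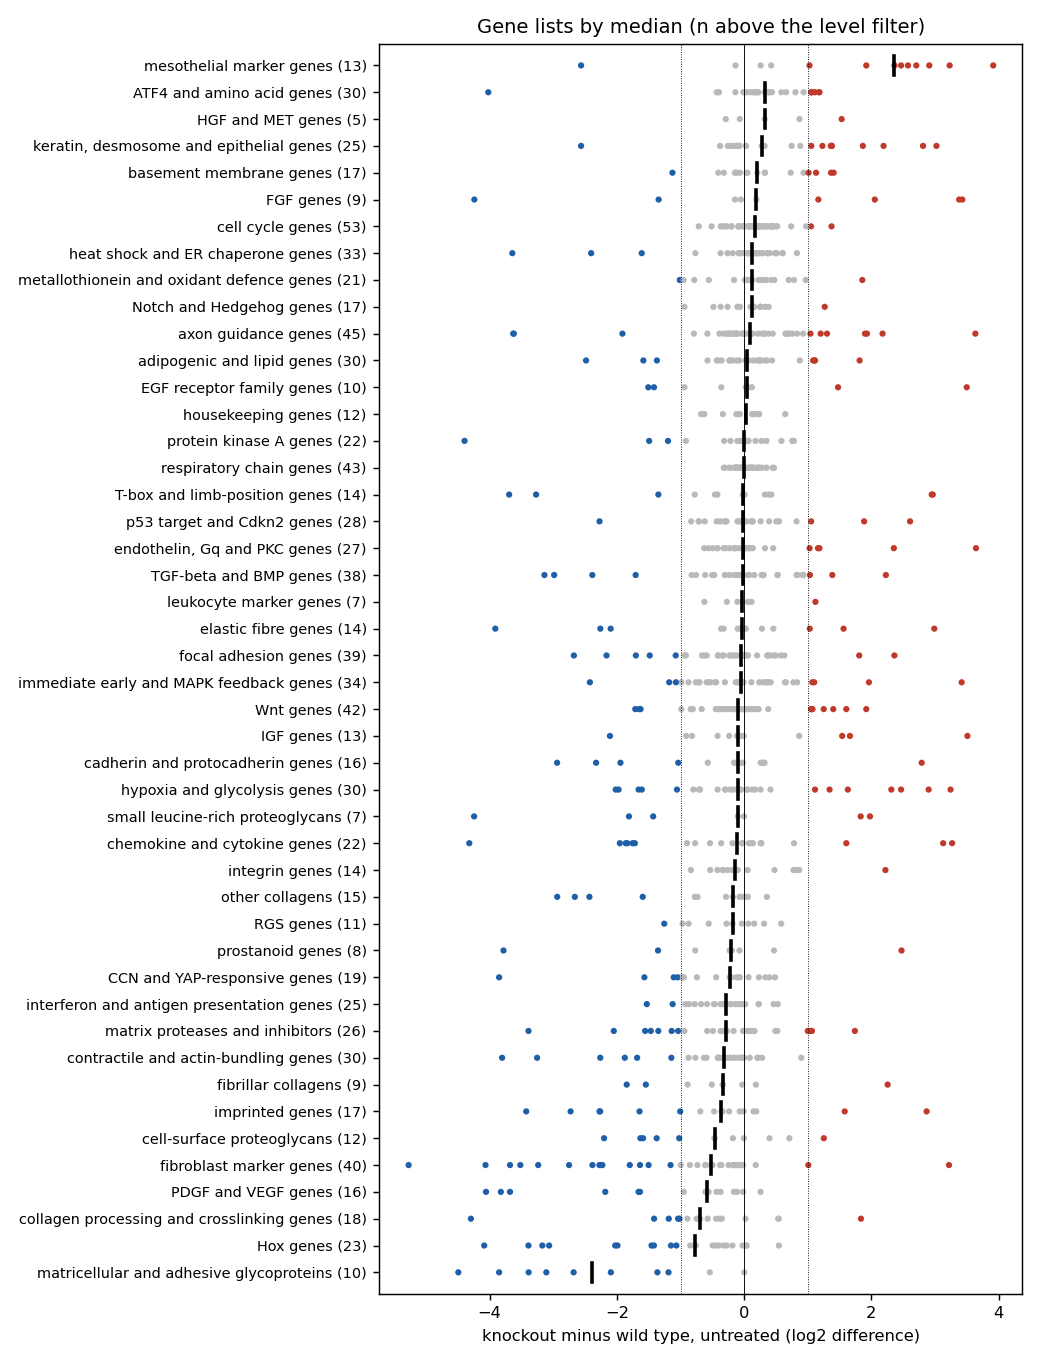
Knockout minus wild-type log2 difference of every gene that passed the level filter in each gene class with at least 5 such genes (1 array a side; number of genes in parentheses), ordered by class median (black bar). Red and blue points are genes at least 2-fold higher or lower, grey points lie within 2-fold, and dotted lines mark 2-fold. Mesothelial markers have the highest median, 2.36, and matricellular glycoproteins the lowest, -2.39.

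Growth factors and their receptors come after the matrix. In the PDGF and VEGF class 16 of 17 genes passed, with 0 higher, 6 lower and a median of -0.59. Pdgfd read 10.53 in wild type and 6.48 in the knockout and Vegfc, the lymphatic VEGF, 11.44 and 7.62. Vegfd was 4.54-fold, the coreceptor Nrp1 3.16-fold and the receptor Pdgfra 3.11-fold lower, and Vegfa was at 0.26. Pdgfd averaged -2.13 over its 3 probe sets.

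FGF ligands stood at both ends. Fgf7, a mesenchymal ligand for epithelial receptors, read 12.67 in wild type and 8.43 in the knockout. Fgf9, a mesothelial and epithelial ligand in the embryonic lung, read 8.03 and 11.40, Fgf5 read 8.71 and 12.14, and Fgf18 was 4.15-fold higher. The receptor Fgfr1 was 2.54-fold lower and Fgfr3 2.25-fold higher, and over all probe sets these were -0.90 and 0.59. Fgf7, Fgf9 and Fgf5 came to -2.93, 2.11 and 1.81 in that way. Of 16 FGF genes on the array 9 passed, with 4 higher, 2 lower and a median of 0.19.

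Ereg and Hbegf, ligands of the EGF receptor, went opposite ways, Ereg at 7.04 in wild type and 10.54 in the knockout and Hbegf at 11.42 and 9.91. The receptor Egfr itself was at -0.94. IGF binding proteins, which hold and release IGFs, were 11.4-fold higher for Igfbp3 (2.73 over its probe sets), 3.16-fold for Igfbp6 and 2.91-fold for Igfbp4, and 4.31-fold lower for Igfbp7 (-0.91 over its 3 probe sets). Igfbp5 was at -0.42 by its brightest probe set but at 3.16 by another. All 7 IGF ligand and receptor genes lay within 2-fold by their brightest probe sets. Dimmer probe sets of Igf1 (-2.17 and -1.23) and of Igf2r (-1.34) were past it. Met, the HGF receptor, read 13.52 and 13.23, and its relative Mst1r was 2.89-fold higher.

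Within TGF-beta and BMP signalling, receptors and transducers lay within 2-fold, with 0 of 10 and 0 of 7 past it. Of the 4 lower members 3 were antagonists. Gremlin-1 (Grem1), which blocks BMPs, read 12.56 in wild type and 9.42 in the knockout, follistatin (Fst), which blocks activins, 11.76 and 8.77, and Chrdl1 8.81 and 6.43. Chrd, chordin, was 2.61-fold higher. The ligand Bmp6 was 4.68-fold and Bmp4 2.05-fold higher, and the activin chain Inhba 3.26-fold lower. Of 45 on the array 38 passed, with 3 higher, 4 lower and a median of -0.03, and averaging all probe sets leaves Fst at -2.02, Chrdl1 at -0.81 and Inhba at -0.89.

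The endothelin, Gq protein and protein kinase C class held members past 2-fold on the high side alone, 5 of 27 that passed, with a median of -0.02. These were 3 of 6 endothelin genes, the phospholipase Plce1 and the kinase Prkcz, at 1.18 (0.44 over its probe sets). After ET-1, 1 of the 6 endothelin genes was 2-fold higher. Edn1, the gene for the peptide used as the study's treatment, read 10.75 in wild type and 11.91 in the knockout, and Edn2 read 8.41 and 10.77. Ece2, a converting enzyme, was 2.04-fold higher (0.48 over its probe sets), and the receptor gene Ednrb read 9.33 and 9.30. Plce1 was 12.5-fold higher, at 12.32 in the knockout, but its wild-type level of 8.68 was under the level filter. Among RGS genes, which switch G proteins off, 1 of 11 was past 2-fold by its brightest probe set, Rgs20, 2.39-fold lower (-0.48 over its probe sets). Rgs4 was at -0.97 by its brightest probe set, but at -2.23 by another.

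Protein kinase A was lower in a single regulatory subunit. Prkar2b read 12.74 in wild type and 8.34 in the knockout, 21.0-fold lower, and its 3 probe sets averaged -3.97. The related subunits Prkar1a (13.45 in both arrays) and Prkar2a (-0.92) and the catalytic subunit Prkaca (0.02) lay within 2-fold. Of 22 genes that passed 3 were lower and 0 higher, with a median of 0.00, and the others were the phosphodiesterase Pde4d and the cyclase Adcy7, at -1.49 and -1.20 (-0.76 and -0.82 over their probe sets).

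Immediate early genes and MAP kinase feedback genes included 4 higher and 3 lower of 34 that passed, with a median of -0.06. Fosl1, an AP-1 subunit, read 12.28 in wild type and 9.86 in the knockout (-1.65 over its probe sets), and Myc read 11.93 and 10.75. Mycn read 10.24 and 13.66, 10.7-fold higher by its brightest probe set and 1.39 on the log2 scale over all 3. Klf4 was 3.89-fold higher. The feedback phosphatases and Sprouty relatives had 1 member past 2-fold of 15, Dusp16, at 1.10 (0.75 over its probe sets).

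Of the secreted immune mediators 3 of 8 CC chemokines, 2 of 7 CXC chemokines and 1 of 7 cytokines were lower, and 3 cytokines were higher. Cxcl5, a neutrophil attractant, read 12.52 in wild type and 8.20 in the knockout, and the monocyte attractants Ccl2 and Ccl7 were 3.88-fold and 3.57-fold lower. Il33 and Il18, both of the interleukin-1 family, read 7.52 and 10.64, and 8.29 and 11.55. Of 22 that passed, of 40 on the array, 3 were higher and 6 lower, with a median of -0.11. Prostanoid enzymes were split, with the inducible cyclooxygenase Ptgs2 13.8-fold lower (-2.72 over its probe sets) and prostacyclin synthase Ptgis 5.55-fold higher. Interferon response and antigen presentation genes gave 0 higher and 2 lower of 25, Ifitm3 at -1.53 and the RNA sensor Ifih1 at -1.12.

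Position-dependent transcription factors form the next class. Hox genes keep a record of the body level from which a fibroblast came, with higher numbers marking more posterior or distal origin. Of 39 listed, 33 were on the array and 23 passed, with 0 higher and 10 lower. Hoxd10 read 10.80 in wild type and 6.72 in the knockout, Hoxc8 12.29 and 8.90, Hoxa9 13.36 and 10.19 and Hoxc10 12.73 and 9.67. All 4 clusters held lower members, 3 in cluster A, 2 in B, 3 in C and 2 in D. Within clusters the difference was not uniform, since Hoxc9 lay at -0.78 between Hoxc8 and Hoxc10, and Hoxa7 at 0.55 beside Hoxa9. Averaging all probe sets leaves Hoxa10 (-0.86) and Hoxc5 (-0.72) under 2-fold and Hoxa9 at -1.83.

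**Figure D4:**
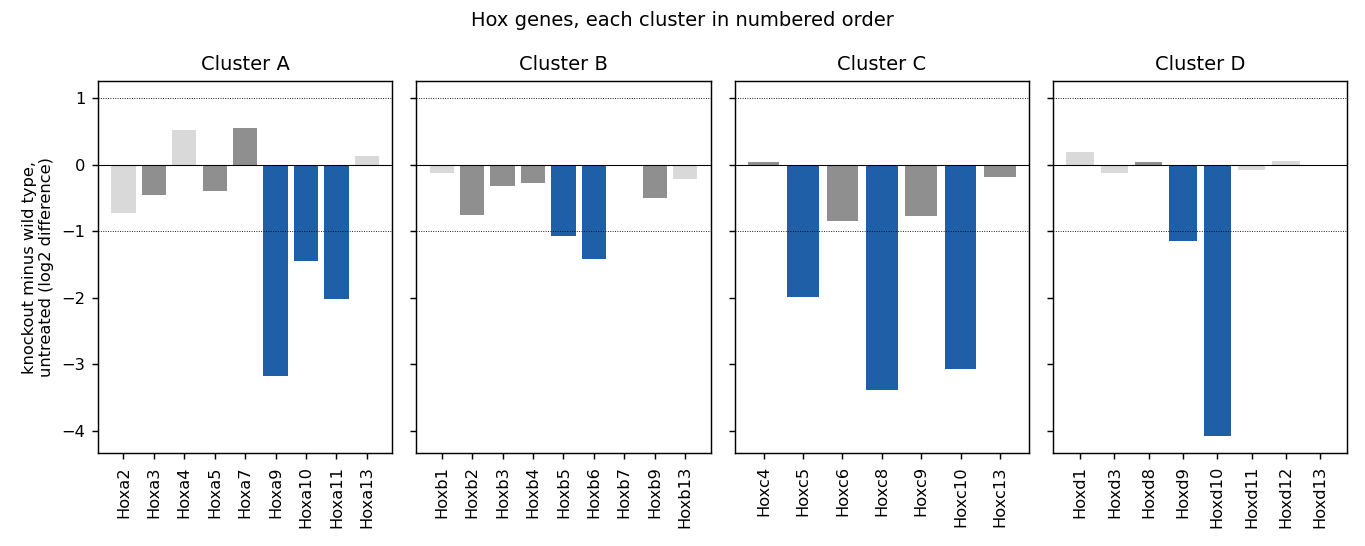
Knockout minus wild-type log2 difference of each Hox gene on the array, in numbered order within clusters A to D (1 array a side). Blue bars are genes 2-fold or more lower, dark grey bars lie within 2-fold, light grey bars are genes below the level filter, and dotted lines mark 2-fold. Each cluster holds 2 or 3 lower genes, none holds a higher one, and the lowest bar is Hoxd10.

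Among limb and T-box genes, 14 of 25 on the array passed, with 2 higher, 3 lower and a median of -0.01. Shox2, a limb and heart homeobox factor, read 12.57 in wild type and 8.88 in the knockout (-2.64 over both probe sets), and Emx2, of the urogenital system and forebrain, 11.70 and 8.43. Hand2 and Tbx20, both factors of heart and lateral mesoderm, read 9.01 and 11.96, and 7.15 and 10.11, with 1.11 and 1.16 over all probe sets.

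Imprinted genes, expressed from 1 parental allele, gave 2 higher and 6 lower of 17 that passed, with a median of -0.36. Grb10, an adaptor that restrains insulin signalling, read 13.90 in wild type and 10.48 in the knockout. Dlk1 and the non-coding Meg3, which neighbour each other in 1 imprinted domain with opposite parental expression, were 6.62-fold and 4.80-fold lower. Cdkn1c, a CDK inhibitor, was 4.83-fold lower. Peg3 read 11.54 and 14.40 and Mest 13.01 and 14.59, both higher, and both are expressed from the paternal allele. Of the 8 paternally expressed genes that passed, 2 were higher and 2 lower, and of the 9 maternally expressed, 0 and 4. Igf2 read 9.30 in both arrays. Averaged over all probe sets the sizes were smaller, at -1.29 for Grb10, -1.48 for Dlk1 and 1.81 for Peg3, and the 11 probe sets of Meg3 averaged close to 2-fold lower.

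Other developmental signalling classes were mixed. Of 42 Wnt genes that passed, 7 were higher and 3 lower, with a median of -0.10. Wnt5a read 10.09 in wild type and 11.70 in the knockout, and Wnt5b, Wnt9a and Wnt11 were 2.38-fold, 2.07-fold and 2.08-fold higher, while Rspo3 was 3.27-fold lower. Over all probe sets Wnt5a (0.68), Wnt9a (0.55) and Rspo3 (-0.90) came under 2-fold. Guidance genes gave 7 higher and 3 lower of 45. Slit2, a repellent, read 13.12 and 9.49, and the class 3 semaphorins Sema3d and Sema3a, whose genes are neighbours, were 12.4-fold higher and 3.77-fold lower. Sema3d read 8.38 in wild type, under the level filter. Slit2 and Sema3d came to -2.44 and 2.01 over all probe sets. Jag1, a Notch ligand, was 2.40-fold higher (0.90 over its probe sets), the 1 member past 2-fold of 17 Notch and Hedgehog genes. Of 16 cadherin and protocadherin genes 4 were lower and 1 higher. N-cadherin (Cdh2) read 11.97 and 12.27, the protocadherin Pcdh19 12.34 and 9.40 and the planar polarity cadherin Celsr1 7.81 and 10.60.

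Stress classes differed in a few members each. In the ATF4 and amino acid class, which all cells use to meet amino acid shortage, 30 genes passed, with 6 higher, 1 lower and a median of 0.33. The higher members were near 2-fold, as Chac1 (11.50 in wild type and 12.68 in the knockout), Trib3 (11.29 and 12.35) and Ddit4 (9.34 and 10.52) show. After ET-1, 2 of the 6 were again higher by 2-fold or more, and the median of the 30 was 0.29. Cth, the transsulfuration enzyme that makes cysteine, read 11.85 and 7.82, 16.2-fold lower. Among heat shock genes Hspa1b read 13.54 and 9.90, but Hspa1a is a near-identical copy, so which of the pair differed is uncertain. The small heat shock gene Hspb8 was 5.30-fold lower (-1.52 over its probe sets). None of the 15 endoplasmic reticulum chaperones was past 2-fold, and their median was 0.21.

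Targets of p53 gave 3 higher of 20 and a median of 0.05. Pmaip1 (Noxa), a BH3-only death gene, read 9.15 in wild type and 11.76 in the knockout, and Trp53inp1 read 9.62 and 11.50 (0.98 over its probe sets). The main p53 targets Cdkn1a (11.20 and 11.18) and Mdm2 (11.86 and 11.99) were near equal, and Cdkn2a differed by -0.38. Oxidant defence genes had 1 higher, Gsta4 at 1.86, and 1 lower, Srxn1 at -1.01, of 21, and the 4 probe sets of Srxn1 averaged -0.49.

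Metabolic classes had members on both sides. Of 30 hypoxia and glycolysis genes that passed, 7 were higher and 5 lower, with a median of -0.10. Among glucose transporters Slc2a3 read 9.54 in wild type and 12.78 in the knockout and Slc2a1 read 12.84 and 11.78. Among phosphofructokinases Pfkp read 9.41 and 11.72 and Pfkl 12.93 and 11.32. Hexokinase 1 (Hk1) was 3.93-fold lower. Epas1, the oxygen-sensing factor HIF-2 alpha, was 7.46-fold higher, while Hif1a read 13.93 and 13.75. Over all probe sets Slc2a3 came to 1.72, Pfkp to 1.21, Epas1 to 1.80 and Pfkl to -0.97. Of 30 adipogenic and lipid genes that passed, 4 were higher and 3 lower, with a median of 0.04. The fat cell regulator Pparg read 9.32 and 7.95 and its target Fabp4 9.35 and 6.87 (-1.04 over its probe sets). The early adipogenic factors Cebpb and Cebpd went the other way, at 1.11 and 1.08 (1.23 and 0.61 over their probe sets), and the cholesterol exporter Abca1 read 10.16 and 11.97 (0.75 over its probe sets).

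Growth-related and general classes were close to equal. Of 53 cell cycle and replication genes 2 were past 2-fold, Ccnb2 at 1.37 and Ccne2 at 1.05, with a median of 0.17, and Mki67 read 13.61 in wild type and 13.52 in the knockout. By the brightest probe set, none of the 43 respiratory chain genes and none of the 12 housekeeping genes was past 2-fold. Their medians were 0.00 and 0.03. Dimmer probe sets of the housekeeping genes Tfrc (2.27 and 1.28), Ywhaz (-1.11) and Gusb (-1.06) were past 2-fold. Rplp0 read 14.85 and 14.79.

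Some of the highest genes belong to no class above. Gabra4, a GABA-A receptor subunit, read 6.99 in wild type and 11.38 in the knockout. Pcsk5, a proprotein convertase, read 9.23 and 13.18, and the endocytic receptor Lrp2 read 9.63 and 13.11. Podocalyxin (Podxl), a sialomucin of podocytes and mesothelium, read 10.97 and 14.12. Aldh1a1, which makes retinoic acid, was at 3.04, the peptide hormone gene Apela at 3.14 and the coagulation inhibitor Tfpi at 3.03. On the low side, the phosphate-regulating peptidase Phex read 10.40 and 6.15, the natriuretic peptide clearance receptor Npr3 11.69 and 7.55, Sspn of the dystrophin complex 12.38 and 8.29, and the cytoskeletal regulator Dpysl3 13.71 and 10.12. Averaged over all probe sets the sizes were 2.56 for Gabra4, 1.73 for Pcsk5, 2.46 for Lrp2, 1.95 for Podxl, -2.29 for Phex, -1.74 for Npr3 and -2.86 for Sspn. Aldh1a1 and Tfpi were named after their values were seen.

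Neighbouring genes were also read as pairs. The order of the RefSeq table placed 12230 of the genes and gave 8182 pairs of neighbours that were both measured. In 36 pairs both genes were 2-fold or more higher, in 30 both were lower and in 26 they differed in direction. Taken singly, 4.78% of all genes were higher and 4.59% lower. The number of such pairs among unrelated genes was not computed, so the counts and the pairs named here are a description. Bex2, Nxf3 and Bex4, adjacent on the X chromosome, were at 3.13, 3.97 and 2.64. Krt8 and Krt18 were both higher, and Fmn1 and Grem1, whose regulatory regions overlap in limb mesenchyme, were at -2.63 and -3.14. The pair Ptx3 and Shox2 was at -2.25 and -3.69. Pairs of the same direction included members of 1 gene family, such as Hoxa9 with Hoxa10, and Ccl2 with Ccl7. Grb10 and its neighbour Ddc went opposite ways, at -3.42 and 2.47.

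After ET-1 the genotype difference had a larger size than without it in 677 of the 1151 genes past 2-fold, and the opposite sign in 9. Wild type after ET-1 was the array with a Gapdh gap of 3.79, against 0.85 to 0.90 on the other 3, and its part in those sizes was not tested. Gpm6a, for example, differed by 2.91 untreated and by 8.40 after ET-1. In wild type it read 11.41 untreated and 5.95 after ET-1, and in the knockout 14.32 and 14.35. Bex1 read 10.54 and 5.74 in wild type against 13.85 and 13.99 in the knockout, and the adhesion protein gene Mpzl2 read 9.13 and 5.36 against 12.94 and 12.84. For these genes, high in the knockout, it was the wild-type level that differed between the pairs. For Thy1 and Myl9, low in the knockout, it was mainly the knockout level. Thy1 read 13.01 untreated and 13.46 after ET-1 in wild type and 8.95 and 6.85 in the knockout, and Myl9 read 13.29 and 13.47 against 9.48 and 7.51. The knockout array after ET-1 had a Gapdh gap of 0.90 and an Actb gap of 1.27, and the part of either in these last values was not tested. In both sets of examples the untreated arrays were closer to each other than those after ET-1. Whether any RNA or cells of one untreated culture were present in the other was not tested, and the untreated differences and the wild-type levels of mesothelial markers are read with that limit.

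**Figure D5:**
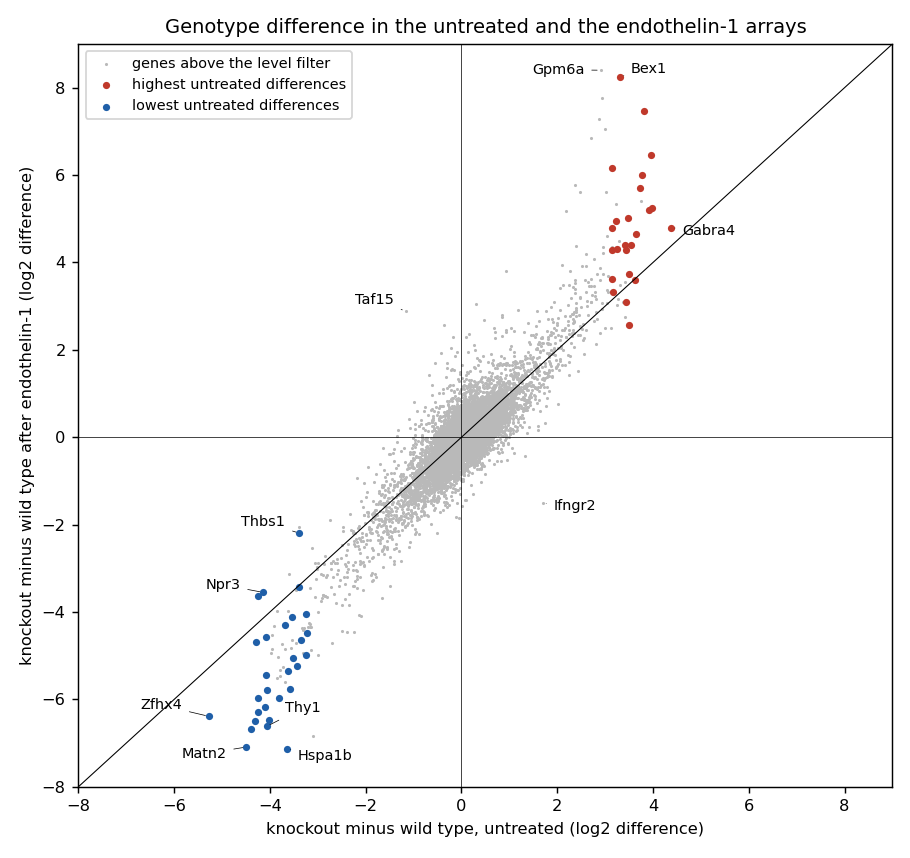
Knockout minus wild-type log2 difference of each of the 12290 genes without ET-1 (x axis) and after ET-1 (y axis), from pairs that share no array, 1 array each. Red and blue points are genes named at either end of the untreated difference, and the diagonal marks equal differences. Gpm6a and Bex1 lie well above the diagonal, Thy1 and Matn2 below it, and Ifngr2 and Taf15 have opposite signs in the pairs.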

How the data were processed

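RNA of 4 cultures (100 ng each, labelled in 2 cycles from the poly-A end, per the labels' protocols) was measured on Affymetrix mouse whole-genome arrays. The authors deposited their log2 values in 1 table with a line for each probe set. RMA was the method per the submitters' processing notes, and its version is not given in the sources used here. It corrects background, equalises the arrays' distributions and summarises probes. The table's lowest value is 5.00, and if a constant was added, differences of dim genes are understated.

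Of 45101 probe sets, 34958 were paired with 1 gene, 932 with several and 9211 with none listed. Each gene was read from the probe set that was brightest on average over the 4 arrays, and kept if its highest value exceeded the median of all values, 8.90. The untreated knockout minus wild-type difference was taken from the deposited log2 values with no further normalization. With 1 array a side no model was fitted and no p-value is given. The members and the 51 gene lists, holding 1345 genes, were chosen with earlier results of these data known. Named genes are up to 6 members at either end of a list past 2-fold, members that define a list or are its brightest, the 15 highest and 15 lowest of all genes, and the same among genes above the filter on both arrays. Not all are printed. The alternatives were other level filters, other ways to choose the probe set, 2 further normalizations, subtraction of a constant and other fold thresholds. The counting was tested on simulated data. Promoter windows came from RefSeq (GRCm38.p6), and no other coordinates were used. Python 3.11.15, numpy 2.4.6, pandas 2.3.3 and matplotlib 3.10.9 were used.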

Additional observations from a re-analysis of the deposited data

Results flagged for a closer look

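For 9 genes past 2-fold without ET-1, the knockout minus wild-type difference had the opposite sign after ET-1. Each value is 1 array against 1 array, and the difference between the pairs was not tested. Ifngr2, a chain of the interferon-gamma receptor, was at 1.69 untreated and -1.51 after ET-1, and Taf15, an RNA-binding protein of the FET family, was at -1.17 and 2.89, so these 2 were past 2-fold both times. The other 7 were within 2-fold after ET-1. The nucleoside transporter Slc29a1 was at -1.34 and 0.04, the actin-binding protein gene Triobp at -1.32 and 0.17, E030024N20Rik at -1.10 and 0.42, and the mitochondrial beta-oxidation gene Hadha at -1.08 and 0.21. The stress-responsive Sesn2 was at 1.05 and -0.25, the selenophosphate synthetase Sephs2 at 1.10 and -0.37 and the ubiquitin ligase G2e3 at 1.32 and -0.43. The ET-1 pair includes the array with the Gapdh 3' to 5' gap of 3.79.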

How the results depend on the processing

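No paired analysis was possible because each group is 1 array and every replicate number is 1. The counts of genes past 2-fold, 587 higher and 564 lower, became 1344 and 1109 at 1.5-fold and 259 and 286 at 3-fold, which the thresholds themselves bring about. With both untreated arrays above the level filter 425 were higher and 340 lower, over 11196 genes. The other alternatives kept both counts within 1.5 times. Of the 269 named genes past 2-fold, 188 were covered with both arrays above the filter and 237 with the upper quartile as the filter. Level filters leave a gene's value as it was, and subtracting array medians shifts all genes alike, so these could not change a sign here. Where a named gene had a value, it did not change sign in any of the alternatives. List medians changed sign in 1 or more of them for 21 of 51 lists, 16 of which had medians within 0.1 of 0, and the other 5 were the FGF, HGF and MET, RGS, integrin and neural lists, such as FGF genes (0.19 to -0.05 with both arrays above the filter) and integrin genes (-0.14 to 0.22 with the upper quartile). Named genes within 2-fold are not part of these 269 and were not followed in this way. Of the 269, 258 had a value as the mean of all probe sets. Of those 258, 208 were still past 2-fold and 72 had moved by 1.5 times or more. With array medians subtracted 264 of 269 stayed past 2-fold, and with quantile normalization 261. The median of the matricellular class was -0.43 with no filter. With the upper quartile as the filter 7 of 49 list medians moved, among them Hox genes to -1.72 and small leucine-rich proteoglycans to -1.43. Averaging probe sets moved the HGF and MET list to 0.93. The median of all genes lay between 0.01 and 0.06 throughout.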

Other observations

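Probe sets that the annotation pairs with no gene or with several were read in the same way. Of 3696 above the level filter, 85 were 2-fold or more higher and 166 lower in the untreated knockout. Over all genes the shares were 4.78% higher and 4.59% lower, but those rest on the brightest probe set of each gene, so the counts cannot be compared directly. They are not named here.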
